A study of Mus musculus with 9 samples.

Results

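Foxa2, a forkhead transcription factor, and genes that mark neuroendocrine cells were followed in the stroma of CR2-TAg mouse prostates. The genes looked for were Foxa2, Chga, Chgb, Syp, Scg5, Uchl1, Eno2, Ncam1 and Ddc. A row of the array table belonged to one of them if the annotation of the array platform gave it that symbol. By this rule 3 of the 9 genes were measured, Foxa2 and Ddc with 1 spotted clone each and Uchl1 with 2. The other 6 genes, among them the chromogranin genes and the synaptophysin gene Syp, were looked for by symbol and by gene number and were not analysed here. The 3 measured genes are set against the 8106 genes that were tested in all.

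CR2-TAg mice are FVB males, hemizygous for a transgene in which elements of the cryptidin-2 gene drive SV40 large T antigen in neuroendocrine cells of the prostate. Stroma was taken by laser capture from 6 mice of 24 weeks of age with invasive cancer and from mice of 10 weeks with prostate intraepithelial neoplasia (PIN), of which the arrays of 3 were analysed here (replicates 2, 3 and 4). Both groups carry the transgene, there is no stroma of a mouse without it, and age and stage cannot be told apart. The dissected strips began at the epithelium and reached farther from it in invasive cancer than in PIN. The tumors of these mice are neuroendocrine, so RNA of tumor cells and RNA of stromal cells cannot be told apart in a strip. Each value is the log2 ratio of a sample (Cy5) over a pooled PIN RNA (Cy3), so each PIN sample also formed a share of its own comparator, and a ratio gives no level that could show whether a gene or a marker is absent.

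Neuroendocrine cells store peptides and amines in dense-core granules and release them on a signal, as neurons do. FOXA2 opens chromatin at its target genes in endoderm, liver and lung, and in the prostate it is known from neuroendocrine tumors of mice and men, whereas its relative FOXA1 works with the androgen receptor in luminal cells. UCHL1 (PGP9.5) is a ubiquitin hydrolase abundant in neurons and neuroendocrine cells, and DDC is the decarboxylase that makes dopamine and serotonin. Chromogranins, encoded by Chga and Chgb, and secretogranins fill the granules.

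The array clones carry no sequence in the table, so the regions before the starts of the measured genes are shown as RefSeq gives them (GRCm38.p6), to place Foxa2 beside the genes that were measured with it. Each run holds the 250 bases before an annotated start, 5′ to 3′ on the strand of the gene. They are chr2:148046970-148047219 on the minus strand for the outermost of 3 starts of Foxa2, chr5:66675871-66676120 on the plus strand for Uchl1, and chr11:11898145-11898394 and chr11:11890409-11890658, both on the minus strand, for the outer and the inner start of Ddc. Capitals mark a forkhead core, searched on both strands as TGTTTAC, as its variant TGTTTGC, as the form TATTTAC and as the form TATTTGC.
Foxa2, outermost start: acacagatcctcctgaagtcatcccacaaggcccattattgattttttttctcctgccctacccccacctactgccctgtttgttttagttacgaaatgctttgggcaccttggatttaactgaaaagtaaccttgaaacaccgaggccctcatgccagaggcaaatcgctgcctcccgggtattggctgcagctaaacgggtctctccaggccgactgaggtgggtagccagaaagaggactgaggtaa
Uchl1: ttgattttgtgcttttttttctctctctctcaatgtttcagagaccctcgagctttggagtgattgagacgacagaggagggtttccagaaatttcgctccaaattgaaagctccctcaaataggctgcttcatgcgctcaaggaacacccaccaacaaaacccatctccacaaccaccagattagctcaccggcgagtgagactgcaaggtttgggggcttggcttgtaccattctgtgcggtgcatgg
Ddc, outer start: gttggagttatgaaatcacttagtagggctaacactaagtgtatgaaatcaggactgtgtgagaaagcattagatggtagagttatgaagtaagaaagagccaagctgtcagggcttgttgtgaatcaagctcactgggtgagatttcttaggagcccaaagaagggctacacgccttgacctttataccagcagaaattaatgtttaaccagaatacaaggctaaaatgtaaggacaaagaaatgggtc
Ddc, inner start: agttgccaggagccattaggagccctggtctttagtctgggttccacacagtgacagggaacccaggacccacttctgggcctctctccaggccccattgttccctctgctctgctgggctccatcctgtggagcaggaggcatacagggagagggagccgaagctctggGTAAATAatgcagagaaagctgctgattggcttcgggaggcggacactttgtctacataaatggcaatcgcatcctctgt
A single such core stood in these runs, 80 bases before the inner start of Ddc. Of all 32851 windows of the same length, 11.9% held at least 1. The windows of the other starts of Foxa2 held no match. The capitals, GTAAATA, are TATTTAC read on the opposite strand. A match describes the letters of the window and not a binding site.

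Foxa2 was higher in the strips dissected as invasive cancer stroma. On the 6 invasive arrays, replicates 1 to 6, the log2 ratio of Foxa2 was 2.19, 1.62, 4.45, 3.12, 2.44 and 0.46, against -0.48, -0.23 and 0.35 on PIN replicates 2, 3 and 4. No PIN array reached the invasive range, although invasive replicate 6 was close to PIN replicate 4. Foxa2 thus averaged 2.38 ± 1.35 in invasive stroma (SD, n = 6) and -0.12 ± 0.43 in PIN stroma (SD, n = 3). The difference of 2.50 (SE 0.64, 95% interval 1.10 to 3.91), or 5.67-fold, passed the threshold taken from the study's methods, an adjusted p under 0.15 (adjusted p = 0.0871 from limma over all genes). In this limma fit the difference did not pass at 0.05. Among all genes Foxa2 ranked 197 by p-value and 12 by the size of the increase.

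Of all genes tested, 3.75% were called higher at this threshold, and 5.64% were called in either direction. Of the 3 measured genes 1 was called, a number too small to set against that share. In 4.86% of all genes the groups did not overlap with invasive stroma on top, as was so for Foxa2 and Ddc, and in 2.99% with PIN stroma on top. The call for Foxa2 was lost without invasive replicate 4 (adjusted p = 0.164), invasive replicate 5 (0.153), PIN replicate 2 (0.303) or PIN replicate 3 (0.249). It was also lost with gene-by-gene two-sample tests in place of limma, the kind of test the study used, with adjusted p-values of 0.163 for unequal and 0.275 for equal variances. The difference stayed between 2.09 and 2.89 without any 1 array.

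**Figure D1:**
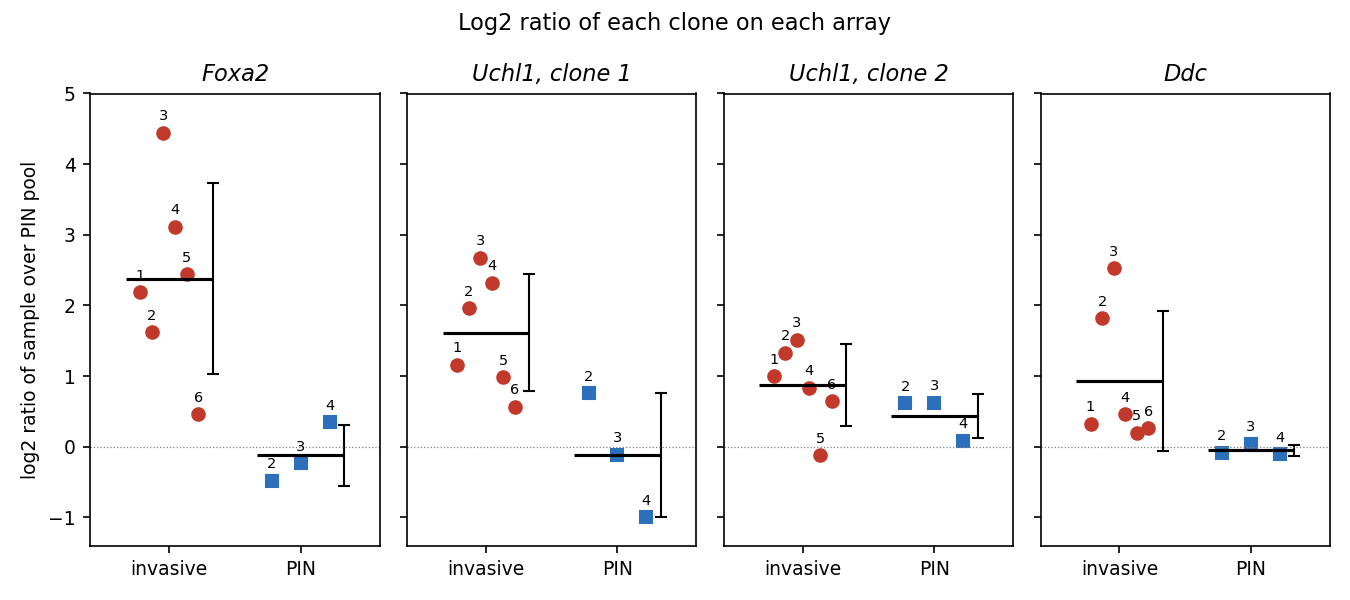
Log2 ratio of sample over PIN pool (vertical axis) for the clones of Foxa2, Uchl1 and Ddc. Red circles are the 6 invasive arrays and blue squares the 3 PIN arrays, numbered by replicate. Horizontal lines are group means and vertical bars 1 SD. Invasive replicate 3 is the highest array in every panel, with 4.45 for Foxa2 and 2.52 for Ddc.

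Averaged over its 2 clones, Uchl1 was at 1.24 ± 0.65 in invasive stroma (SD, n = 6) and at 0.16 ± 0.58 in PIN stroma (SD, n = 3). The difference of 1.08 (SE 0.37, 95% interval 0.27 to 1.89) did not pass (adjusted p = 0.182 from limma), and the groups overlapped, with 0.43 on invasive replicate 5 and 0.69 on PIN replicate 2. The clones of Uchl1 did not give the same size of difference.

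The first clone of Uchl1 had 1.16, 1.96, 2.67, 2.32, 0.98 and 0.57 on invasive replicates 1 to 6, against 0.76, -0.11 and -0.998 on PIN replicates 2, 3 and 4. Its difference was 1.73 (SE 0.48), with an adjusted p of 0.152 from limma over 17207 clones, just outside the threshold, which 2.16% of clones passed. The second clone of Uchl1 had 1.00, 1.33, 1.52, 0.83, -0.12 and 0.64 on the invasive arrays, against 0.62, 0.62 and 0.08 on the PIN arrays. There the difference was 0.43 (SE 0.33, 95% interval -0.29 to 1.14, adjusted p = 0.704 from the same fit). Both clones were highest on invasive replicate 3 and had their lowest PIN value on replicate 4.

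Ddc had high values on a pair of invasive arrays. Its log2 ratio was 0.32, 1.82, 2.52, 0.46, 0.20 and 0.26 on invasive replicates 1 to 6, against -0.09, 0.04 and -0.10 on the PIN arrays. Invasive replicates 2 and 3 stood above the other arrays of the group, which lay between 0.20 and 0.46. All invasive arrays were nevertheless above the PIN arrays, whose SD was only 0.08 (n = 3). The difference of 0.98 (SE 0.48, 95% interval -0.06 to 2.02) did not pass (adjusted p = 0.359 from limma). As these are bulk samples, more cells of a type and more RNA per cell cannot be told apart, for Ddc or for any gene here.

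**Figure D2:**
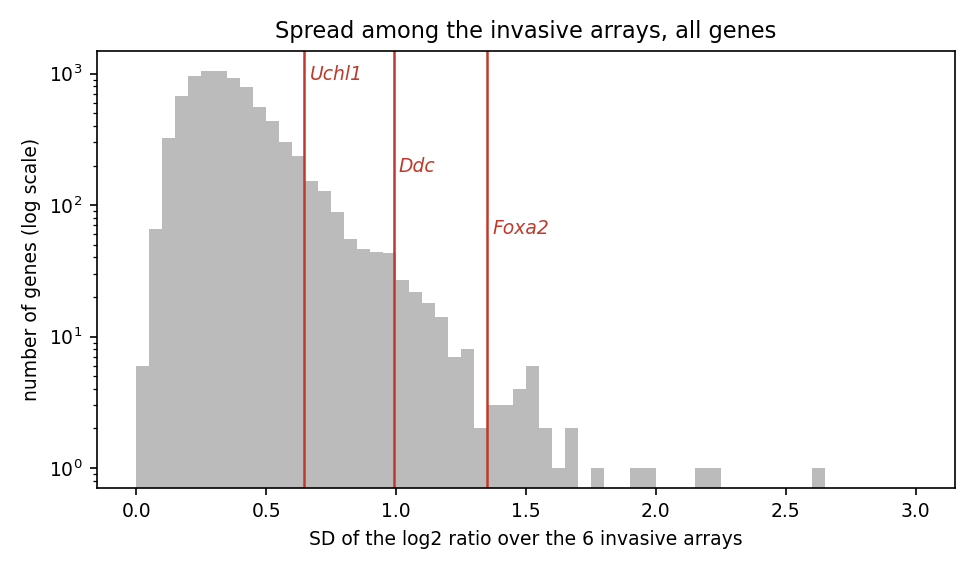
Number of genes (vertical axis, log scale) by the SD of their log2 ratio over the 6 invasive arrays (horizontal axis). Red lines mark Uchl1 at 0.65, Ddc at 0.99 and Foxa2 at 1.35, all to the right of most genes.

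The measured genes varied widely among the invasive mice. Foxa2 had an SD of 1.35 over the 6 invasive arrays, larger than that of 99.6% of the 8087 genes with a value on every array. For Ddc the SD of 0.99 was larger than that of 98.4% of genes, and for Uchl1 the SD of 0.65 exceeded 91.4%. Uchl1, as the mean of its clones, and Ddc ordered the invasive arrays alike, with replicate 3 highest, then 2, 4, 1 and 6, and 5 lowest. Foxa2 was also highest on invasive replicate 3 but departed from that order below it, and it was lowest on invasive replicate 6. Neither clone of Uchl1 alone had the order of Ddc below replicate 3. For Ddc, replicates 1, 4, 5 and 6 lay close together, between 0.20 and 0.46.

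Over the 6 invasive arrays Foxa2 had a Pearson r of 0.61 with the mean of Uchl1 and Ddc (exact permutation p = 0.211, two-sided) and a Spearman rho of 0.43 (exact permutation p = 0.419). With Uchl1 alone r was 0.66 (exact permutation p = 0.15) and with Ddc 0.54 (exact permutation p = 0.286). These 3 relations had adjusted p-values of 0.286 for r and 0.419 for rho after Benjamini-Hochberg adjustment of the exact values. Without invasive replicates 3 and 6, the arrays farthest from the median of Foxa2, r with the mean was -0.48, and without invasive replicate 3 alone it was 0.10. The positive value therefore rests on that array.

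The genes whose pattern over the invasive arrays was most like that of Foxa2 were taken from 1654 genes with an SD of at least 0.5 there. They were Gpd1, a glycerol phosphate dehydrogenase (r = 0.97, n = 6 arrays), Msrb1, which repairs oxidized methionine (0.96), Nlrp4e (0.96), the Wnt inhibitor gene Nkd1 (0.95) and Tubb3, the tubulin of neurons (0.93). In all, 26 genes had r over 0.9 with Foxa2. Among the 5 only Msrb1 passed the test, and it was lower in invasive stroma, with a difference of -1.39 (SE 0.31, limma adjusted p = 0.0569). Genes alike over the invasive arrays thus differed in their direction between the groups.

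Most like the mean of Uchl1 and Ddc were the neuropeptide Y receptor gene Npy1r (r = 0.97), the dynein light chain gene Dynlt1b (0.96), the homeobox gene Noto (0.96), Cks2, which binds cyclin-dependent kinases (0.94), and Haus5 of the augmin complex (0.94). Dynlt1b was higher in invasive stroma by 1.55 (SE 0.29, adjusted p = 0.0371 from limma) and Cks2 by 1.05 (SE 0.33, adjusted p = 0.148). For Npy1r, Noto and Haus5 the groups overlapped and the test was not passed. Without invasive replicate 3, r was 0.84 for Tubb3, 0.87 for Cks2 and 0.90 or more for the other 8 of these 10 genes. The genes were picked for a high r over these same arrays, so the values are a description.

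**Figure D3:**
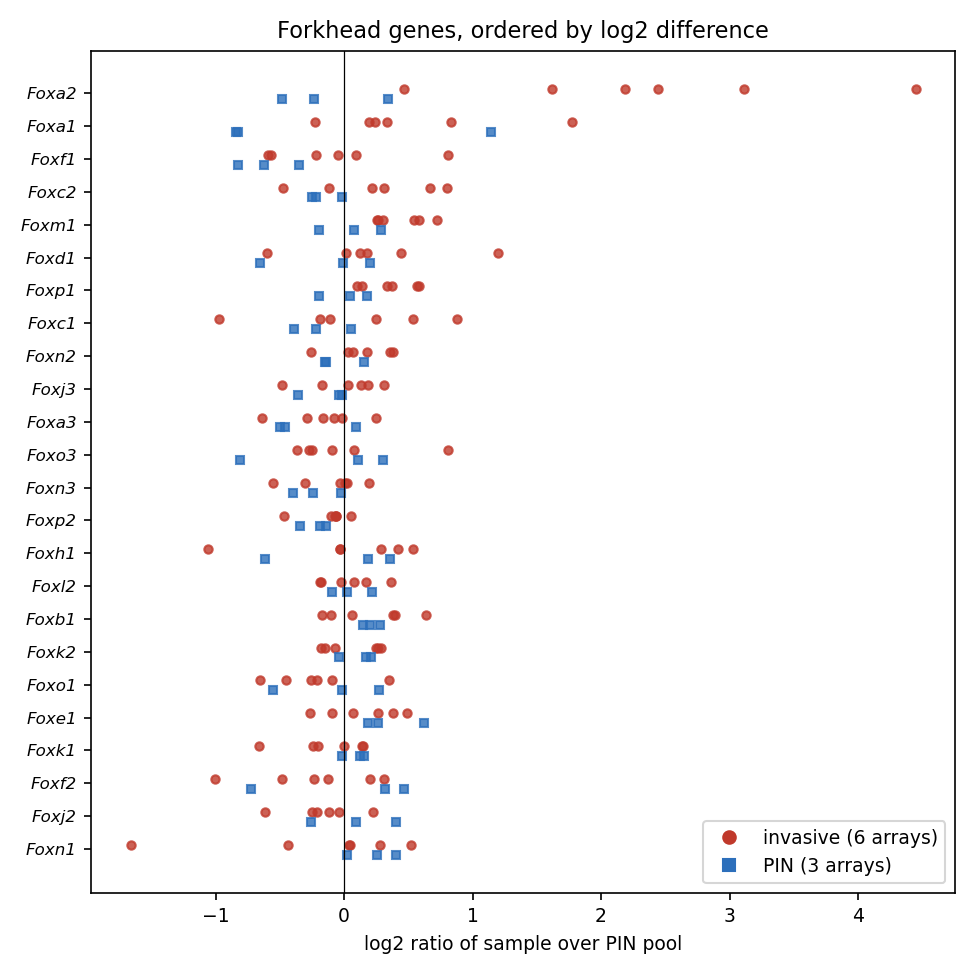
Forkhead genes by array, with the log2 ratio to the PIN pool on the horizontal axis, for Foxa2 and 23 other forkhead genes, ordered by the log2 difference. Red circles are the 6 invasive arrays and blue squares the 3 PIN arrays. Foxa2 reaches 4.45, while no other gene of the family goes above 1.77.

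None of the other 23 forkhead genes tested, of 30 looked for, passed in either direction. Their median difference was 0.11, against 0.02 over all genes. Foxa1 had 0.34, 0.19, 1.77, 0.83, -0.22 and 0.24 on invasive replicates 1 to 6, against -0.83, -0.84 and 1.14 on the PIN arrays. It too was highest on invasive replicate 3, but PIN replicate 4 lay above every invasive array but that one, and its log2 difference, 0.70, did not pass (SE 0.48, limma adjusted p = 0.549). Foxa3, the third gene of the subfamily, differed by 0.13 (SE 0.23, adjusted p = 0.852). Foxm1, a factor of dividing cells, had 0.39 (SE 0.19) and Foxp1 0.34 (SE 0.19), the smallest p-values of these 23 genes, which adjusted to 0.365 and 0.434. Foxa1 and Foxa3 were chosen for description after its values were seen.

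Other neuroendocrine and neuronal genes were taken from 4 lists, for granules and peptide processing, vesicle exocytosis, neuroendocrine transcription factors, and neuronal cytoskeleton and adhesion. Over the 28 genes tested in them, 2 were higher, Hes6 and Slc18a1, and none was lower. Set against the 3.75% of all genes that were higher, 2 of 28 genes is too few for anything to be read from the count.

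Hes6, a partner of proneural factors that opposes Hes1, had 1.06, 1.51, 3.62, 1.47, 1.76 and 1.29 on invasive replicates 1 to 6, against -0.26, 0.21 and 0.02 on PIN replicates 2, 3 and 4. The groups were well apart, and invasive replicate 3 was again the highest. The difference was 1.80 (SE 0.46, adjusted p = 0.0838 from limma), or 3.47-fold, and without PIN replicate 2 or 3 the adjusted p was 0.295 or 0.202. The two-sample tests did not call Hes6 either, with 0.15 for unequal and 0.260 for equal variances. The other 8 transcription factor genes tested, of 18 looked for, did not pass, among them Neurod1, with a difference of -0.18 (SE 0.26), Nkx2-2 with 0.39 (SE 0.43) and Mycn with 0.45 (SE 0.24). Isl1, which is needed for several endocrine and neuronal lineages, had a difference of -1.09 (SE 0.47, adjusted p = 0.304). These 4 genes were chosen for description after their values were seen.

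Slc18a1, the transporter that loads amines such as those made by Ddc into granules, had 0.37, 0.93, 0.04, -0.20, 0.68 and 0.40 on invasive replicates 1 to 6, against -0.40, -0.37 and -0.50 on the PIN arrays. Its difference was 0.79 (SE 0.24, adjusted p = 0.141 from limma), or 1.73-fold. The mean was 0.37 on invasive and -0.42 on PIN arrays, so much of the difference was PIN arrays lying below the PIN pool. That pool also held the PIN sample not analysed here, and its part in this was not tested. On invasive replicate 3, where Foxa2 and Ddc were highest, Slc18a1 was close to 0. The call was lost in 7 of the 9 fits that left out 1 array, all but those without invasive replicate 3 or 4, and with both two-sample tests (0.156 and 0.260).

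The granule list had 5 genes tested of 12 looked for, and none passed. Scg3, a granule protein that binds chromogranin A, had 0.74, 3.69, 2.12, 2.74, 2.41 and 0.40 on invasive replicates 1 to 6, against 0.66, -0.82 and 1.00 on the PIN arrays. On 4 invasive arrays Scg3 stood far above the PIN arrays and on the others it lay within their range, and the difference of 1.74 (SE 0.65) had an adjusted p of 0.219 from limma. Pcsk1, a convertase that cleaves prohormones, had a difference of 0.88 (SE 0.34, adjusted p = 0.233), with 1.47 and 0.30 on its 2 clones. Scg2, a further secretogranin that was chosen after its values were seen, had 0.23 (SE 0.25).

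Among the 9 exocytosis genes tested, Snap25, a membrane fusion protein of neurons and endocrine cells that was singled out after its values were seen, had the widest spread. Its log2 ratio was 1.24, 4.00, 2.96, 5.05, 1.46 and -0.26 on invasive replicates 1 to 6, against 1.18, -0.17 and -0.29 on the PIN arrays. Stmn3, a regulator of microtubules in neurons, had nearly the same pattern, with 0.69, 4.03, 3.62, 4.34, 1.03 and 0.00 on the invasive arrays, against 1.54, -0.24 and -0.33 on the PIN arrays. Both were high on invasive replicates 2, 3 and 4 and were highest among PIN arrays on replicate 2. Neither passed, at 2.17 for Snap25 (SE 0.93, limma adjusted p = 0.300) and 1.97 for Stmn3 (SE 0.93, adjusted p = 0.349). Gap43, a growth cone protein, had 0.70 (SE 0.46, adjusted p = 0.525), with its highest value, 2.60, on invasive replicate 2.

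**Figure D4:**
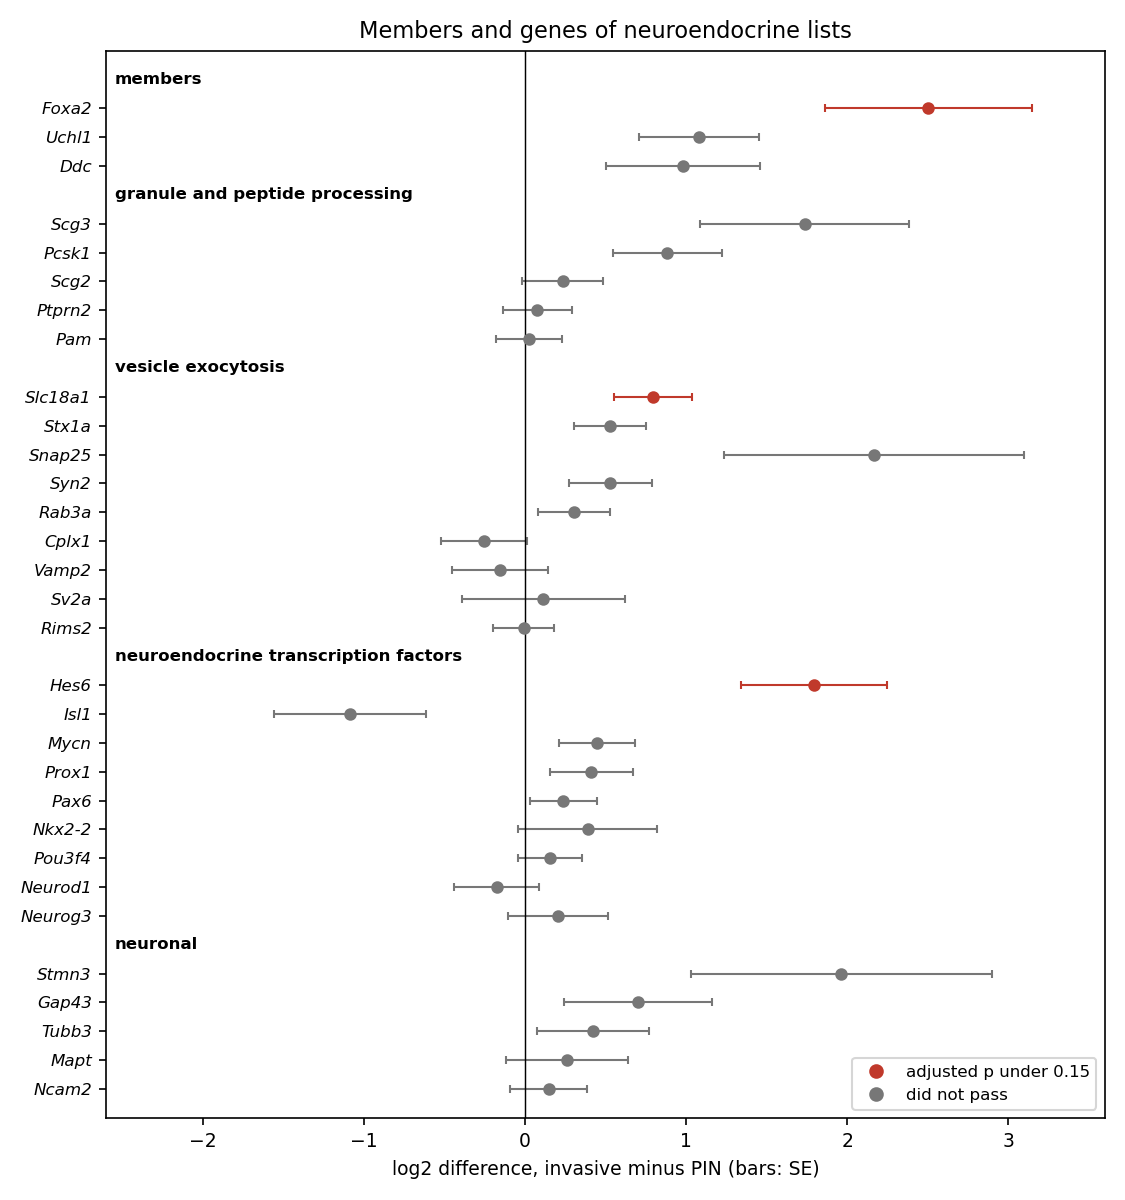
Log2 difference, invasive minus PIN (horizontal axis), for the 3 measured members and the 28 genes of 4 lists. Points are limma estimates from 6 invasive and 3 PIN arrays and bars their SE, with red for an adjusted p under 0.15. Foxa2 at 2.50, Hes6 at 1.80 and Slc18a1 at 0.79 passed.

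None of the 14 genes of amines and peptide hormones tested, of 26 looked for, passed. Npy, the neuropeptide Y gene, had 0.73, 3.54, -0.05, 1.71, 3.81 and 1.84 on invasive replicates 1 to 6, against -0.14, 0.44 and 0.07 on the PIN arrays. It was lowest on invasive replicate 3, where Foxa2 was highest, and its difference of 1.81 (SE 0.71) had an adjusted p of 0.245 from limma. The secretin gene Sct had 0.42 (SE 0.24, adjusted p = 0.447). Th, which encodes the enzyme before DDC in dopamine synthesis and was chosen after its values were seen, had a difference of 0.39 (SE 0.35), with 1.75 on invasive replicate 2 and at most 0.38 on the other invasive arrays.

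Paralogs of Eno2, Uchl1 and Ncam1 were also tested. Eno3, the muscle enolase and a paralog of the neuronal enolase gene Eno2, fell by 1.84 on the log2 scale (SE 0.42, adjusted p = 0.0585 from limma), with no invasive array above a PIN array although invasive replicate 3 and PIN replicate 4 were both at -0.69, and the call was lost without PIN replicate 2 (adjusted p = 0.237) or PIN replicate 3 (0.223) and with the two-sample test of equal variances (0.227). Of all genes, 1.89% were called lower. Uchl5, a paralog of Uchl1 that works on the proteasome, had -0.17 (SE 0.32), and Ncam2, a paralog of Ncam1, had 0.15 (SE 0.24). Uchl5 and Ncam2 were chosen after their values were seen.

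**Figure D5:**
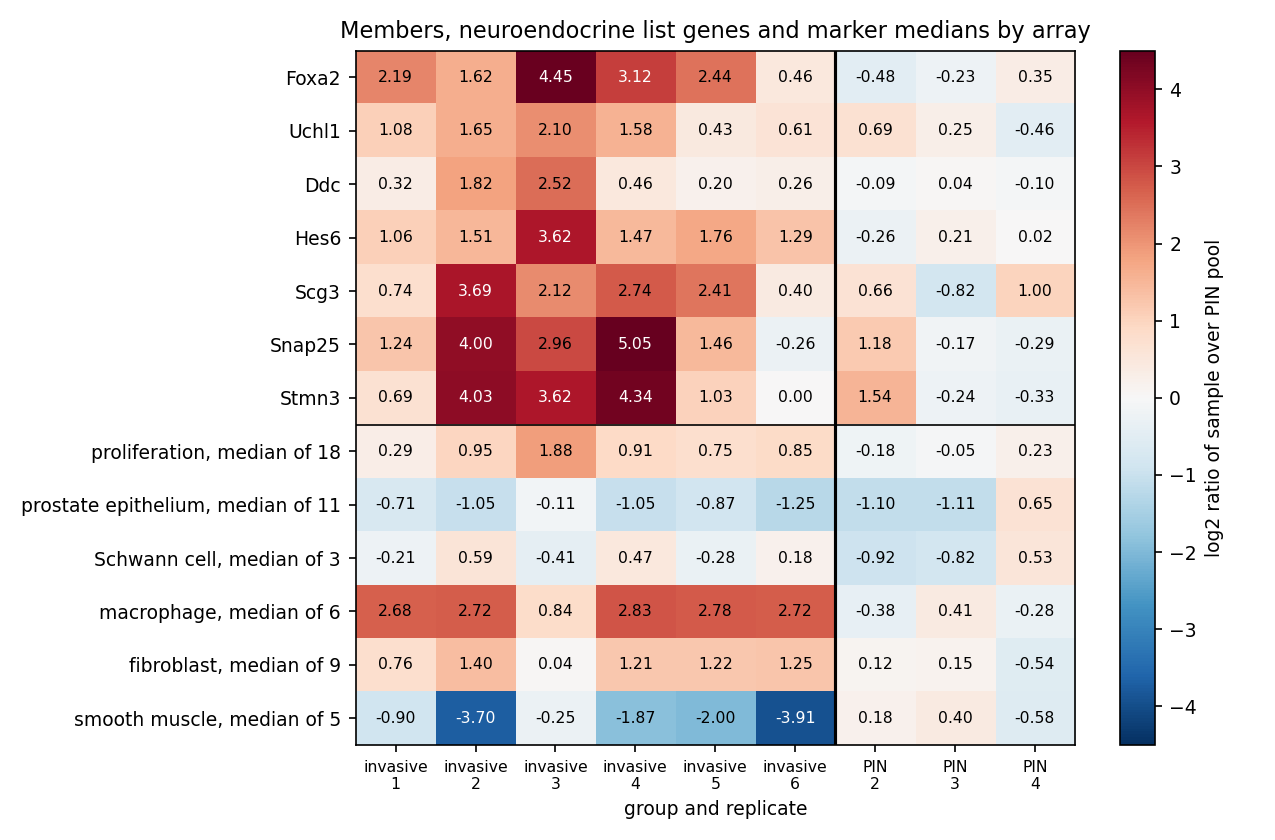
Log2 ratio of sample over PIN pool (colour and printed value) on each array, for the 3 measured members, 4 genes of the lists and the medians of 6 marker lists. Columns are invasive replicates 1 to 6 and PIN replicates 2 to 4. On invasive replicate 3, Foxa2, Hes6 and the proliferation median are at 4.45, 3.62 and 1.88, and the macrophage median is at 0.84.

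Marker medians of other cells set invasive replicate 3 apart from the other invasive arrays. Invasive replicate 3, the highest array for Foxa2, Uchl1, Ddc and Hes6, had the highest median of 18 proliferation genes, at 1.88 against 0.29 to 0.95 on the other invasive arrays. It had the lowest median of 6 macrophage genes, at 0.84 against 2.68 to 2.83 on the others, and of 9 fibroblast genes, at 0.04 against 0.76 to 1.40. Its median of 11 prostate epithelium genes was -0.11, the highest of the invasive arrays, which had -1.25 to -0.71 otherwise. Its median of 5 smooth muscle genes was -0.25, against -3.91 to -0.90 on the other invasive arrays. That value lay within the PIN range of -0.58 to 0.40. Across the other invasive arrays Foxa2 ran from 0.46 to 3.12, while the macrophage median stayed within 2.68 to 2.83. For Foxa2 the difference without invasive replicate 3 was 2.09 (SE 0.48, adjusted p = 0.0321 from limma), which passed. For Ddc it was 0.66 and for Uchl1 0.91, neither of which passed. Leaving out this array does not test the part of any cell type, and the call for Foxa2 was lost without certain other arrays, as given above.

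By group, and beside the 3.75% of all genes that were called higher and the 1.89% called lower, 7 of the 18 proliferation genes were higher in invasive stroma and none lower, and their median ran from 0.29 to 1.88 on the invasive arrays, against -0.18 to 0.23 on the PIN arrays. All 6 macrophage genes tested were higher, with a median of 0.84 to 2.83 on invasive and -0.38 to 0.41 on PIN arrays. Of the 9 fibroblast genes 3 were higher, with 0.04 to 1.40 on invasive and -0.54 to 0.15 on PIN arrays. Of 5 smooth muscle genes 3 were lower, with -3.91 to -0.25 on invasive and -0.58 to 0.40 on PIN arrays. None of 11 epithelial genes and none of 3 Schwann cell genes passed. Their medians ran from -1.25 to -0.11 and from -0.41 to 0.59 on invasive arrays, against -1.11 to 0.65 and -0.92 to 0.53 on PIN arrays. Not every marker looked for was tested. The lists held 23 proliferation, 18 macrophage, 15 fibroblast, 10 smooth muscle, 22 epithelial and 13 Schwann cell genes. The part of these cells, or of neuroendocrine tumor cells in the strips, in the result for Foxa2 was not tested. PIN replicate 4, the highest PIN array for Foxa2, also had the highest epithelial median, 0.65, and without it the difference of Foxa2 was 2.74 (adjusted p = 0.122).

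Pairs of invasive arrays had an r of 0.256 to 0.769 over all clones, pairs of PIN arrays 0.176 to 0.672, and mixed pairs 0.218 to 0.529. PIN replicate 4 had only 0.176 and 0.189 with PIN replicates 2 and 3. Invasive replicate 3 had 0.529 with PIN replicate 2, against 0.56 with invasive replicate 1 and 0.256 to 0.487 with the other invasive arrays. Without both invasive replicate 3 and PIN replicate 4, a setting chosen after seeing the data, Foxa2 had a difference of 2.32 (adjusted p = 0.0399), Hes6 1.44 (0.0115), Uchl1 0.60 (0.364) and Ddc 0.63 (0.405). Each array held 17189 to 17206 values, and their number limits the precision. No filter on dim spots was applied, as brightness was not used.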

How the data were processed

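Stroma was collected by laser capture, and its RNA was amplified linearly and hybridized to 2-colour arrays of spotted mouse cDNA clones, with no dye swap. The authors deposited log2 ratios of sample over PIN pool, normalized by print-tip lowess without background subtraction. The table held 17664 rows, of which 457 had no values, and its platform annotation gave 12563 rows 1 symbol, 412 several and 4689 none. Clones with the same symbol were averaged on each array. Genes and, separately, 17207 clones were tested where 4 or more invasive arrays and 2 or more PIN arrays had a value, with limma 3.58.1 (lmFit and eBayes) in R 4.3.3, with Benjamini-Hochberg adjustment over all genes or all clones. The call used an adjusted p under 0.15. The fit was tested on simulated data. Exact permutation tests used scipy 1.17.1. Each array held stroma of a different mouse, and 1 PIN sample of the study was not analysed here.

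Named were all measured members and their clones, from each gene list those that passed (up to 4) or else the 2 with the smallest p, and the 5 genes most like Foxa2 and the 5 most like the mean of the other members over the invasive arrays. Any other gene is said to have been chosen after its values were seen. The members and lists were chosen with earlier results of these data known. Alternatives changed the test, the scaling, the filter, the clone rule, the threshold and the arrays included.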

Additional observations from a re-analysis of the deposited data

Results flagged for a closer look

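Among 26 genes and clones examined for a single array far from the rest of the 6 invasive arrays, 2 exceeded the critical ratio of Dixon's test at the 95% level. Hes6 was 3.62 on invasive replicate 3 and at most 1.76 on the other invasive arrays, a ratio of the gap to the range of 0.730. Sct was 1.23 on invasive replicate 1 and at most 0.53 on the others, with a ratio of 0.647. By chance about 5% of groups exceed this limit. Foxa2, Uchl1 and Ddc were not among them, although each was highest on invasive replicate 3. No cause was tested.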

How the results depend on the processing

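No difference of Foxa2, Uchl1, Ddc, Hes6, Slc18a1 or Eno3 changed sign under any alternative. As reported, 457 genes, 371 clones and 1 measured member were called. Counts of genes, clones and members were 207, 66 and 0 with a t-test of unequal variances, 54, 37 and 0 with one of equal variances (the methods name a t-test but not which form), 1626, 2540 and 2 with array weights, 76, 79 and 0 at a threshold of 0.05, and 2595, 4439 and 3 with the invasive arrays set against 0. The fit against 0 leaves out the PIN arrays and does not compare the groups. Taking the clone with the smallest p, a choice made from these same data, gave 751 genes and 2 members. Leaving out the genes with the lowest SD gave 2 members. Without both invasive replicate 3 and PIN replicate 4, a setting chosen after seeing the data, 1064 genes and 1459 clones were called. Leaving out 1 array gave 37 to 896 genes, 37 to 1179 clones and 0 to 1 members, with the fewest genes without PIN replicate 2 and the most without invasive replicate 3. The cause was not tested.

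Foxa2 had adjusted p-values of 0.163 and 0.275 with the unequal-variance and the equal-variance test, and leaving out 1 array gave differences of 2.09 to 2.89. Leaving out 1 array gave 0.77 to 1.34 for Uchl1 and 0.66 to 1.13 for Ddc, with no call. Uchl1 passed with array weights (0.89, adjusted p = 0.0895) and without the genes of lowest SD (adjusted p = 0.111). Against 0, a fit without the PIN arrays, Uchl1 passed (1.24, adjusted p = 0.00305), and Ddc passed only there (0.93, adjusted p = 0.0546). By its first clone Uchl1 had 1.73 (adjusted p = 0.0751), but each gene's clone was picked there for its smallest p. In the limma fit over all clones that clone did not pass (adjusted p = 0.152). Hes6 (1.80) was not called with the unequal-variance test (0.15) or the equal-variance test (0.260), Slc18a1 (0.79) with 0.156 and 0.260, and Eno3 (-1.84) was not called with the equal-variance test (0.227). In the main limma fit none of these 3 or Foxa2 (2.50) passed at 0.05. In the limma fit with array weights the adjusted p was 0.00895 for Foxa2, 0.0106 for Hes6, 0.00279 for Eno3 and 0.0743 for Slc18a1. The correlation of Foxa2 with the mean of Uchl1 and Ddc ranged from 0.10 to 0.83 without 1 array.

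Invasive and PIN samples came from different mice of different ages, so the main fit did not pair arrays by replicate number. Deviations of same-numbered arrays had r of -0.09, -0.10 and -0.02 over 8087 genes. Differently numbered arrays had -0.03 to 0.14. So few arrays, each centred on its group, cannot show whether samples were paired. With the replicate block, which leaves 3 numbers shared by both groups, 90 genes, 37 clones and 2 members were called, with 3.19 for Foxa2 (adjusted p = 0.0794), 1.61 for Uchl1 (0.116), 1.65 for Ddc (0.194), 2.21 for Hes6 (0.116), 0.68 for Slc18a1 (0.463) and -1.56 for Eno3 (0.172). With 3 PIN arrays, and signals over background not used here, the spread of PIN stroma is known poorly.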
